A study of Homo sapiens with 16 samples.

Results

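Chromosome 17 was examined as the set of all peaks placed on it in 4 lists of CUT&Tag peaks from A549, an established line of human lung carcinoma cells. The set held 2250 peaks of 31050 in all 4 lists (7.25%), with positions on the build hg19. Of these, 326 were G-quadruplex (G4) peaks after a control siRNA (siControl), 351 after siRNA against BAZ2A (siBAZ2A) and 387 after siRNA against BAZ2B (siBAZ2B), all found with the G4 antibody BG4. The other 1186 were peaks of H3K4me3 in siControl cells. H3K4me3 was not mapped after either knockdown, so every overlap with it refers to H3K4me3 of siControl cells. All 4 groups were transfected with 71 nM siRNA for 48 hours and had Drosophila chromatin added as a spike-in, with 4 replicates each, which the labels do not describe as separate cultures. Each list merges the replicates of its group, so no value has an error over replicates and conditions are compared without a test. How far the siRNAs lowered BAZ2A or BAZ2B was not analysed here. The chromosome was chosen because its share of H3K4me3 peaks with BG4 was high and its share of gained peaks low in these same lists, so both are given as description, without a test. Intervals in parentheses are 95% Wilson intervals and reflect only the number of peaks counted. For shares weighted to equal strength or equal width they are 95% normal approximations instead.

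A G4 is a 4-stranded fold of DNA, held together by runs of guanines that pair with each other, and in living cells G4s are found mostly in open chromatin at active promoters. H3K4me3 is the histone mark of such promoters. BAZ2A belongs to the nucleolar complex that silences ribosomal RNA genes by remodelling their chromatin, and its relative BAZ2B likewise reads histones through a bromodomain. Chromosome 17 is among the human chromosomes with the most genes for their length and with GC-rich DNA, and it has no ribosomal RNA gene array.

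Promoters of chromosome 17 more often held the sequence pattern of a G4 than those of other chromosomes. The pattern searched was GGGNGGGNGGGNGGG, with each N standing for 1 to 7 bases of any kind and each run for 3 or more guanines, on both strands. It was searched in RefSeq promoter windows of 300 bases (250 before and 50 after a gene's start, build GRCh38.p14). The pattern stood in 496 of 1639 windows on chromosome 17 (30.3%, 28.1 to 32.5) and in 8282 of 33477 windows elsewhere (24.7%, 24.3 to 25.2). Windows of 1 of the 24 chromosomes were not used here, so elsewhere stands for 22 chromosomes. Chromosome 17 had rank 3 of these 23, behind chromosomes 22 (33.5%) and 19 (32.7%). The windows of chromosome 17 also had a higher median GC content (62% against 58.3%). At the same GC content, by quintiles of all windows, the other chromosomes would hold the pattern in 30.1% of windows, next to the 30.3% of chromosome 17. The peaks are on another build and could not be placed on these windows, so no peak is tied to a gene here. To show what the pattern looks like, and not as BG4 sites, 3 matches of at most 30 bases are given, with the guanine runs in capitals and coordinates on GRCh38.p14. They were taken for the most guanines (24, 22 and 21) among genes with a name of their own, leaving out microRNA and antisense genes, and at equal counts the shorter match, then the first by name, was taken. They lie before the starts of HEXD, which encodes a hexosaminidase, DERL2, which acts in degradation of proteins from the endoplasmic reticulum, and ELP5, a subunit of the Elongator complex that modifies transfer RNA.
HEXD (chr17:82418287-82418315, minus strand): GGGtGGGGGGGtGGGGGGGGGcaggtGGG
DERL2 (chr17:5486357-5486385, minus strand): GGGtGGGGagatGGGGcgctGGGGGGGGG
ELP5 (chr17:7251626-7251651, plus strand): GGGGGaGGGGGcagtGGGGGaGGGGG

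H3K4me3 peaks were unevenly spread along the chromosome. Divided into 82 bins of 1 Mb, with each peak placed by its midpoint, chromosome 17 had H3K4me3 peaks in 77 bins, with a median of 13 per bin. The 26 bins with at least 20 held 717 of the 1186 peaks. The fullest bins were 79 to 80 Mb with 47 H3K4me3 peaks, 7 to 8 Mb with 44, 40 to 41 Mb with 39, and 48 to 49 Mb and 73 to 74 Mb with 35 each. The longest stretches without a peak of any list lay at chr17:49338707-52977866 (3.64 Mb) and chr17:22261623-25539147 (3.28 Mb). Whether these stretches hold sequence to which reads can be mapped was not examined, so they may not be chromatin free of both marks. The median H3K4me3 peak of chromosome 17 lay in a bin with 23 H3K4me3 peaks, against 11 elsewhere. The median width was alike, with 1126 bp on chromosome 17 and 1125 bp elsewhere. Widths were more spread on chromosome 17, with lower and upper quartiles of 672 and 1558 bp, against 737 and 1491 bp elsewhere. The fold enrichment given by the authors' peak caller was slightly lower (median 7.64 against 8.06).

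**Figure D1:**
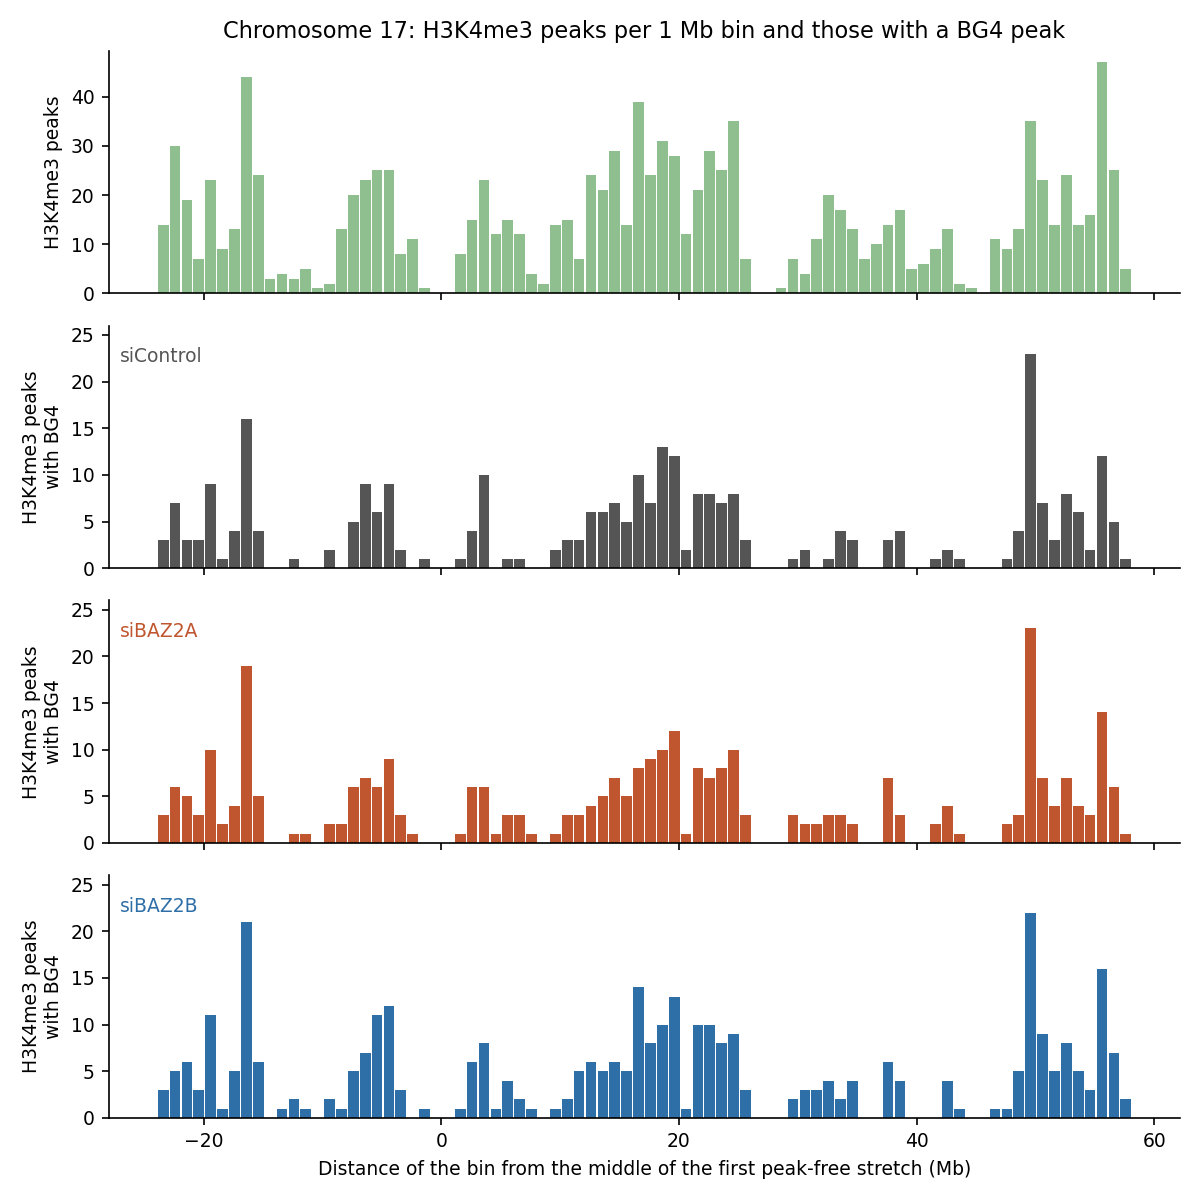
Number of H3K4me3 peaks in each 1 Mb bin of chromosome 17 (top) and number of these with a BG4 peak in siControl, siBAZ2A and siBAZ2B (lower panels), against the distance of the bin in Mb from the middle of the peak-free stretch at chr17:22261623-25539147. The tallest BG4 bar of every list is the bin from 73 to 74 Mb, with 23, 23 and 22 of 35 H3K4me3 peaks, although the bin from 79 to 80 Mb holds more H3K4me3 peaks (47).

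G4 peaks sat on a larger share of the H3K4me3 peaks of chromosome 17 than of most chromosomes. Of its 1186 H3K4me3 peaks, 306 had a siControl BG4 peak (25.8%, 23.4 to 28.4), where all chromosomes together had 16.0%. In siBAZ2A the number was 326 (27.5%, 25.02 to 30.1, against 21.1% over all chromosomes) and in siBAZ2B 363 (30.6%, 28.1 to 33.3, against 23.4%). Chromosome 17 ranked 2 of 24 in each list, behind chromosome 19. In total 449 of its H3K4me3 peaks had BG4 in at least 1 list (37.9%, 35.1 to 40.7), and 224 had it in all 3 lists (18.9%, 16.8 to 21.2). On all other chromosomes the shares were 28.8% and 11.4%, and on chromosome 19 alone 37.1% and 21.1%. BG4 summits lay close to the H3K4me3 summits, at a median distance of 140 bp in siControl (120 bp elsewhere), 137 bp in siBAZ2A (123 bp) and 145 bp in siBAZ2B (126 bp).

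The order of the lists on chromosome 17 was not the same when they were cut to equal length. With all BG4 lists cut to the length of siControl by q-value, 25.8% (23.4 to 28.4) of the chromosome's H3K4me3 peaks had siControl BG4. For siBAZ2A BG4 it was 23.6% (21.3 to 26.1) and for siBAZ2B BG4 22.8% (20.6 to 25.3). The order was thus turned, with intervals that overlap. When peaks with a −log10 q under 5 were left out instead, the order was kept, with 21.7%, 24.03% and 24.1%. On the other chromosomes the shares at equal length were 15.4%, 16.3% and 15.997%. Chromosome 17 held 9.78% of all siControl BG4 peaks (8.82 to 10.8), 8.25% of the siBAZ2A peaks (7.46 to 9.11) and 7.95% of the siBAZ2B peaks (7.23 to 8.75). At equal length it held 9.78%, 8.88% and 8.55%.

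Wide H3K4me3 peaks carried BG4 most often, and at equal width the share was higher on chromosome 17. Quintiles (5 groups of equal size) were taken over all H3K4me3 peaks of the genome, from the narrowest, up to 651 bp, to the widest, from 1590 bp. In siControl the chromosome 17 share went from 28 of 282 peaks in the narrowest quintile (9.93%, 6.96 to 13.98) to 124 of 272 in the widest (45.6%, 39.8 to 51.5). Elsewhere it went from 5.03% (4.35 to 5.81) to 29.3% (27.8 to 30.9). The share on chromosome 17 was higher in 5 of 5 quintiles in each list. Since the chromosome was chosen on its share with BG4, the intervals are no test of this. By fold of the H3K4me3 peak, chromosome 17 was also higher in 5 of 5 quintiles in each list. In siControl, 20.5% of its peaks in the weakest quintile, 29.3% in the middle quintile and 22.2% in the strongest had BG4.

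**Figure D2:**
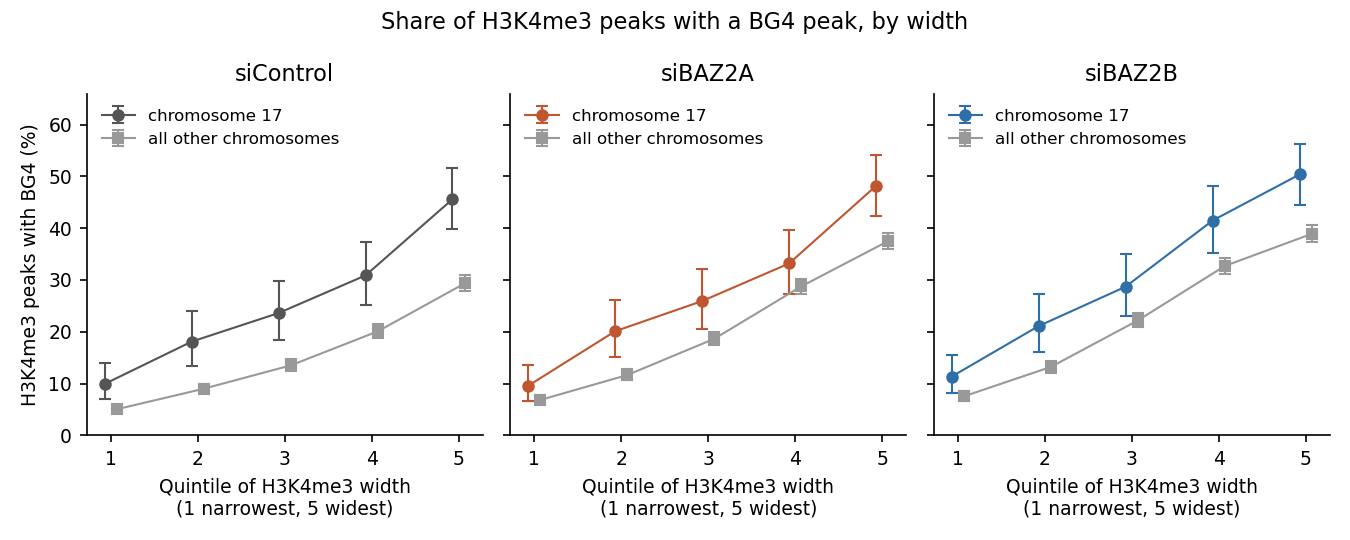
Percent of H3K4me3 peaks with a BG4 peak (y) in each quintile of H3K4me3 width (x), for chromosome 17 and all other chromosomes in the 3 BG4 lists, with bars for 95% Wilson intervals. In siControl the widest quintile reaches 45.6% on chromosome 17 and 29.3% elsewhere.

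Bins with more than 20 H3K4me3 peaks had higher shares than emptier ones, on chromosome 17 and elsewhere. Among H3K4me3 peaks in bins of 11 to 20 such peaks, 17.5% (13.95 to 21.7) had siControl BG4 on chromosome 17 and 16.4% (15.5 to 17.5) elsewhere. In bins of 21 to 30 the shares were 30.3% (26.2 to 34.7) and 21.3% (19.7 to 23.1), and in fuller bins 35.5% (29.6 to 41.9) and 27.1% (24.8 to 29.4). If the other chromosomes had their H3K4me3 peaks in bins as full as those of chromosome 17, their share would be 19.8% instead of 15.4% in siControl (25.8% on chromosome 17), 24.1% instead of 20.7% in siBAZ2A (27.5%) and 26.3% instead of 22.9% in siBAZ2B (30.6%). The part of bin fullness in the shares was not tested. Shares on both sides of the stretch at chr17:22261623-25539147 lay close together in siControl, with 85 of 327 H3K4me3 peaks before it (25.99%, 21.5 to 31.01) and 221 of 859 after it (25.7%, 22.9 to 28.8).

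Shares of single bins were spread more widely, and the small counts of bins widen such a spread by themselves. How much of it they give was not tested. Over the 51 bins with at least 10 H3K4me3 peaks, the siControl share ran from 0% to 65.7% with a median of 24%. The siBAZ2A share had a median of 24.1% and the siBAZ2B share one of 30.8%. The highest siControl shares were at 73 to 74 Mb (23 of 35, 65.7%, 49.2 to 79.2), at 27 to 28 Mb (10 of 23, 43.5%, 25.6 to 63.2) and at 43 to 44 Mb (12 of 28, 42.9%, 26.5 to 60.9). The bin from 77 to 78 Mb had the same share as the last (6 of 14, 42.9%, 21.4 to 67.4). The intervals at 27 to 28 Mb and 77 to 78 Mb include the chromosome's 25.8%, and that at 43 to 44 Mb begins just above it. In 6 such bins no H3K4me3 peak had siControl BG4. The largest of these were 15 to 16 Mb (0 of 13, up to 22.8%) and 28 to 29 Mb (0 of 12, up to 24.2%), followed by 21 to 22 Mb, 55 to 56 Mb and 70 to 71 Mb (each 0 of 11, up to 25.9%). Of the 51 bins, only that from 60 to 61 Mb, with 10 H3K4me3 peaks, had no H3K4me3 peak with BG4 in any list.

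Among the 51 bins with at least 10 H3K4me3 peaks, that from 73 to 74 Mb had the highest share in each of the 3 lists. This bin was picked for its siControl share, and the lists have many BG4 peaks in common, so they are not separate evidence. Of its 35 H3K4me3 peaks, 23 had BG4 in siControl, 23 in siBAZ2A (65.7%, 49.2 to 79.2) and 22 in siBAZ2B (62.9%, 46.3 to 76.8). In all 3 lists together 16 of them had it, and 6 had it in none. Its H3K4me3 peaks were wider than those of the chromosome (median 1414 against 1126 bp). The H3K4me3 peak at chr17:73284818-73286224 had BG4 folds of 11.1 in siControl, 10.3 in siBAZ2A and 6.91 in siBAZ2B. Folds are compared here only within a list, where all 3 stood above the list's chromosome 17 median of 6.88, 6.95 and 5.92. In the same bin the H3K4me3 peak at chr17:73452383-73453599, with a higher H3K4me3 fold (11.8 against 10.3), had no BG4 in any list. Without this bin the siControl share of the chromosome was 24.6%, and leaving out each other bin in turn gave up to 26.2%.

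Neither the strongest nor the widest H3K4me3 peaks of the chromosome all carried BG4: 1 of the 5 strongest and 3 of the 5 widest had it in any list. Of the 5 of highest fold (15.7 to 16.9), 1 had a BG4 peak, at chr17:26219888-26220503, and only in siBAZ2A (BG4 fold 8.45). Of the 5 widest (3220 to 3726 bp), chr17:27276130-27279388 had BG4 in all 3 lists, with folds of 7.41, 6.37 and 5.59 in siControl, siBAZ2A and siBAZ2B. The one at chr17:7744882-7748465 had it in both knockdown lists only, and the one at chr17:4850457-4853771 in siControl only. The other 2, among them the widest at chr17:36102156-36105881, had none.

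After siBAZ2A, 91 BG4 peaks of chromosome 17 overlapped no siControl peak and are called gained. They were 25.9% of the 351 siBAZ2A peaks (21.6 to 30.8), where the whole list had 39.9%. The 68 siControl peaks with no siBAZ2A peak, called lost, were 20.9% of 326 (16.8 to 25.6, against 23.4% of the whole list). With siBAZ2B, 119 of 387 peaks were gained (30.7%, 26.4 to 35.5, against 44.0%) and 59 of 326 lost (18.1%, 14.3 to 22.6, against 18.6%). Both knockdowns are set against the same siControl list. Since the chromosome was chosen on these contrasts, the distance from the whole list is not evidence. The lost shares lay near those of the whole list.

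Gained and lost peaks were the weaker and narrower ones. In siBAZ2A the gained peaks of chromosome 17 had a median fold of 6.21 and width of 515 bp, against 7.36 and 658.5 bp for the peaks shared with siControl. In siBAZ2B the medians were 5.25 and 458 bp against 6.27 and 650.0 bp. The siControl peaks lost in siBAZ2A had a median fold of 5.49 against 7.35 for the kept ones, and those lost in siBAZ2B 5.44 against 7.21. Most of both kinds lay on H3K4me3 peaks of siControl cells. Whether the mark was there after knockdown is unknown. For gained peaks this was 82 of 91 in siBAZ2A (90.1%, 82.3 to 94.7) and 109 of 119 in siBAZ2B (91.6%, 85.2 to 95.4), close to the 90.3% and 87.6% elsewhere. For lost peaks it was 62 of 68 (91.2%, 82.1 to 95.9) and 51 of 59 (86.4%, 75.5 to 93.0), where other chromosomes had 73.3% (69.9 to 76.4) and 78.5% (74.9 to 81.7). Chromosome 19 alone had 86.8% (75.2 to 93.5) and 92.3% (79.7 to 97.3).

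Merging overlapping BG4 peaks of the 3 lists gave 486 loci on chromosome 17. Of these, 234 were in all 3 lists, 50 in both knockdown lists and not in siControl, 41 in siBAZ2A alone, 69 in siBAZ2B alone, 35 in siControl alone, 24 in siControl and siBAZ2A and 33 in siControl and siBAZ2B. Loci of all 3 lists were 48.1% of the total on chromosome 17 and 36.5% elsewhere. Loci of both knockdowns only were 10.3% and 15.5%, those of siBAZ2A alone 8.44% and 12.5%, those of siBAZ2B alone 14.2% and 19.6%, and those of siControl alone 7.20% and 6.19%. On chromosome 19 the shares of these classes, in the same order, were 53.4%, 9.44%, 9.44%, 13.7% and 4.42%. The strongest locus of all 3 lists, chr17:22020533-22020990, lay outside H3K4me3 and is described further on. Next in that class, chr17:41919512-41920374 had folds of 15.1 in siControl, 13.6 in siBAZ2A and 6.19 in siBAZ2B, and chr17:4870320-4871202 had 12.9, 12.8 and 10.7. The leading locus found in both knockdowns only, chr17:47865931-47866789, had folds of 10.7 in siBAZ2A and 6.79 in siBAZ2B. The next, chr17:29876699-29877256, had 9.73 and 4.55. The strongest locus of siBAZ2A alone was chr17:26220085-26220516 (fold 8.45), which lies on one of the 5 strongest H3K4me3 peaks. That of siBAZ2B alone was chr17:66755754-66756054 (7.80). Loci of siControl alone were led by chr17:42620698-42621112 (9.21), chr17:27169560-27170047 (9.002) and chr17:5323114-5323455 (8.85). Apart from the first, the loci named here lay on H3K4me3.

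Gained peaks were scattered over the chromosome in small numbers. In siBAZ2A 47 bins had a gained peak and 36 a lost one, and 26 had both. In siBAZ2B the numbers were 52, 35 and 28. The number of BG4 peaks was higher than in siControl in 30 bins and lower in 18 with siBAZ2A, and higher in 42 and lower in 12 with siBAZ2B. No bin had more than 6 gained peaks in either knockdown. With siBAZ2A the most were at 7 to 8 Mb (6 of 22 peaks gained, 1 lost) and 79 to 80 Mb (5 of 17 gained, 2 lost). With siBAZ2B there were 6 gained peaks at 7 to 8 Mb (of 23, 0 lost), 18 to 19 Mb (of 11, 1 lost), 40 to 41 Mb (of 14, 2 lost) and 79 to 80 Mb (of 18, 2 lost). Over the chromosome 25.9% of siBAZ2A and 30.7% of siBAZ2B peaks were gained. The bins at 79 to 80 Mb and 7 to 8 Mb were also the fullest in H3K4me3 peaks. Lost peaks were most numerous at 73 to 74 Mb, with 6 in siBAZ2A and 7 in siBAZ2B beside 4 and 5 gained. This bin also had the most siControl BG4 peaks (25), and over the chromosome 20.9% and 18.1% were lost. At 1 to 2 Mb, 5 were lost and 2 gained in siBAZ2A, and 4 were lost and 0 gained in siBAZ2B, so the bin went from 12 siControl peaks to 9 and 8. At 27 to 28 Mb, 5 were lost and 2 gained in siBAZ2A, and 2 were lost and 1 gained in siBAZ2B.

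**Figure D3:**
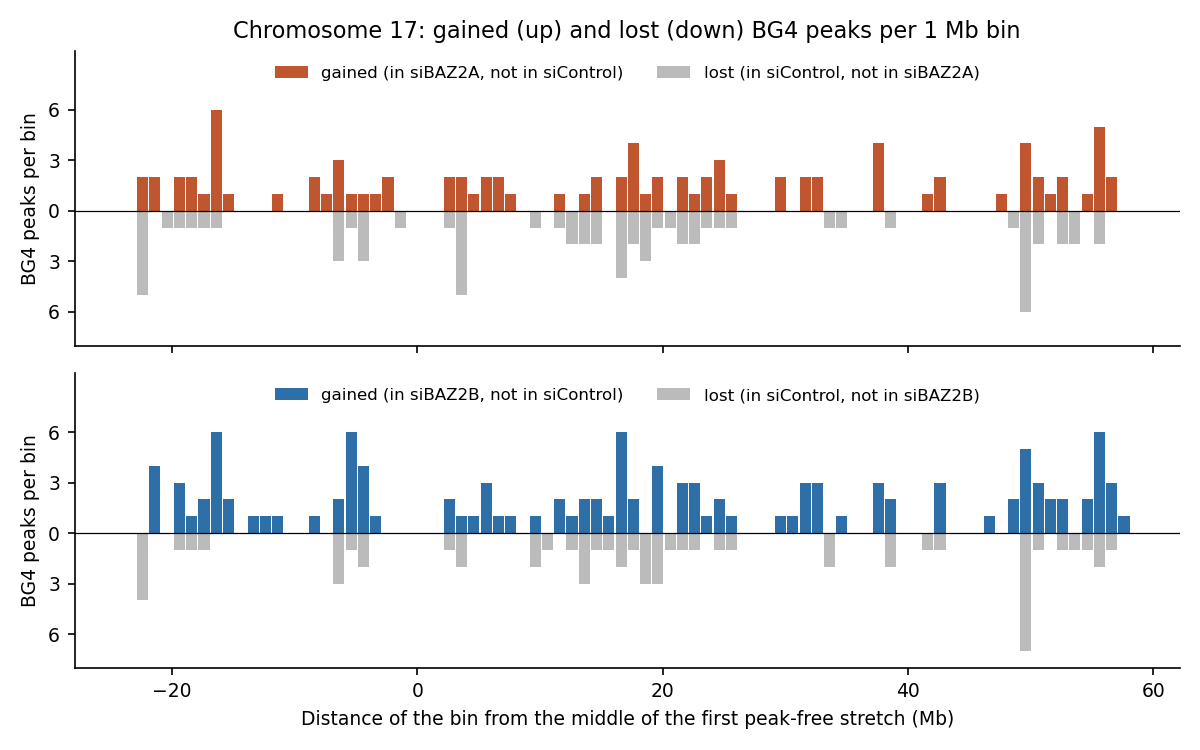
Number of BG4 peaks gained (upward bars) and lost (downward grey bars) against siControl in each 1 Mb bin of chromosome 17, for siBAZ2A (top) and siBAZ2B (bottom), against the distance of the bin in Mb from the middle of the peak-free stretch at chr17:22261623-25539147. Gains do not exceed 6 in any bin, and the longest downward bars, 6 and 7, are at the same bin, 73 to 74 Mb. That bin also has the most siControl BG4 peaks (25).

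At equal strength the gained share was lower on chromosome 17 than on the other chromosomes together, and chromosome 19 had a share near that of chromosome 17. Peaks were split into quintiles of fold over the whole knockdown list. In siBAZ2A the chromosome 17 share was 32 of 77 peaks in the weakest quintile (41.6%, 31.2 to 52.7), against 65.8% elsewhere (62.4 to 69.1). In the following quintiles it was 43.1% against 53.3%, 23.5% against 43.2% and 13.6% against 29.2%. In the strongest it was 3 of 62 (4.84%, 1.66 to 13.3) against 14.7% (12.4 to 17.3). In siBAZ2B it went from 49 of 105 (46.7%, 37.4 to 56.2) against 57.9% (54.6 to 61.2) in the weakest quintile, through 38.7% against 58.5%, 31.6% against 51.3% and 19.4% against 36.6%, to 5 of 69 (7.25%, 3.13 to 15.9) against 22.01% (19.4 to 24.8) in the strongest. The share was lower in 5 of 5 quintiles in both knockdowns. Since the chromosome was chosen on its gained share, this is a description, and the intervals are no test of it. With the quintiles of chromosome 17, the other chromosomes would have gained shares of 42.4% in siBAZ2A, against 25.9%, and of 46.9% in siBAZ2B, against 30.7%. With the quintiles of the whole list, the gained share was 25.3% on chromosome 17 (21.1 to 29.6) and 28.8% on chromosome 19 in siBAZ2A. In siBAZ2B it was 28.7% (24.4 to 32.97) and 28.9%.

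**Figure D4:**
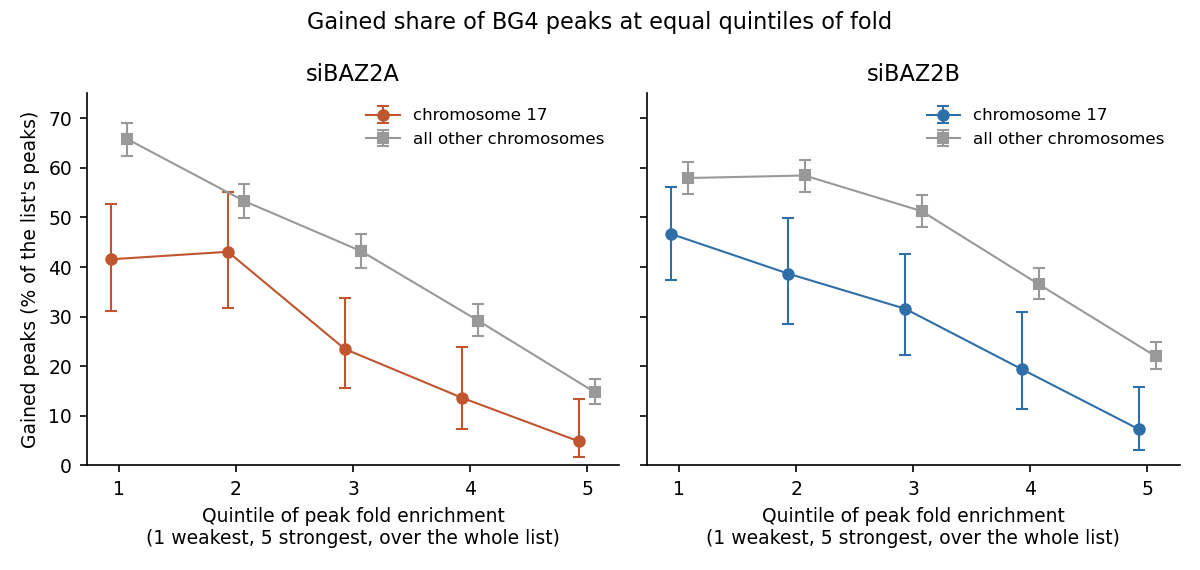
Percent of BG4 peaks that were gained against siControl (y) in each quintile of peak fold over the whole knockdown list (x), for chromosome 17 and all other chromosomes, with bars for 95% Wilson intervals. In both knockdowns the chromosome 17 points lie below the others in 5 of 5 quintiles, by the largest margin in the weakest quintile of siBAZ2A (41.6% against 65.8%).

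Lost peaks showed less of this. In siBAZ2A 44.3% of siControl peaks in the weakest quintile were lost on chromosome 17 (34.4 to 54.7) against 50.3% elsewhere (46.2 to 54.3). For losses in siBAZ2B it was 39.8% on chromosome 17 (30.2 to 50.2), next to 43.005% (39.03 to 47.1). The lost share was lower on chromosome 17 in 4 of 5 quintiles in each knockdown, with intervals apart in 0 quintiles. In the strongest quintile it was higher, with 4 of 56 peaks lost in each knockdown (7.14%, 2.81 to 16.98) against 3.77% (2.53 to 5.59) and 2.46% (1.496 to 4.02).

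Counted over H3K4me3 peaks instead of BG4 peaks, the gains of chromosome 17 were near those elsewhere. The gained share has the number of BG4 peaks as its denominator, and chromosome 17 had many siControl BG4 peaks that recur in the knockdown lists. Among the 880 H3K4me3 peaks of chromosome 17 without siControl BG4, 80 had a siBAZ2A peak (9.09%, 7.37 to 11.2), with 9.67% over all chromosomes and 9.71% (9.24 to 10.2) on the others. For siBAZ2B it was 108 (12.3%, 10.3 to 14.6), with 11.8% over all chromosomes and 11.8% (11.3 to 12.4) on the others. Chromosome 17 ranked 14 and 12 of 24 by these shares, but 23 and 22 by the gained share of BG4 peaks. At equal H3K4me3 width the shares of the chromosome were 9.27% (7.35 to 11.2) and 12.6% (10.4 to 14.8), against 9.69% and 11.8% elsewhere. The intervals of this measure are wide enough to hold both a somewhat lower and a somewhat higher share than elsewhere. The sign of the difference turned with the peak threshold. When peaks with a −log10 q under 5 were left out, the shares were 8.18% on chromosome 17 against 7.01% for siBAZ2A and 7.43% against 8.14% for siBAZ2B.

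Losses counted over H3K4me3 peaks were likewise near those of all chromosomes. Of the 306 H3K4me3 peaks of chromosome 17 with siControl BG4, 60 lacked it in siBAZ2A (19.6%, 15.5 to 24.4, against 19.1% over all chromosomes) and 51 in siBAZ2B (16.7%, 12.9 to 21.3, against 16.2%). Chromosome 19, the other chromosome with a high siControl share, had 9.08% (7.39 to 11.1) and 10.8% (8.98 to 13.01) of its H3K4me3 peaks without siControl BG4 carrying it in siBAZ2A and siBAZ2B. It lost 13.5% (10.2 to 17.7) and 10.1% (7.22 to 13.9) of those with it.

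**Figure D5:**
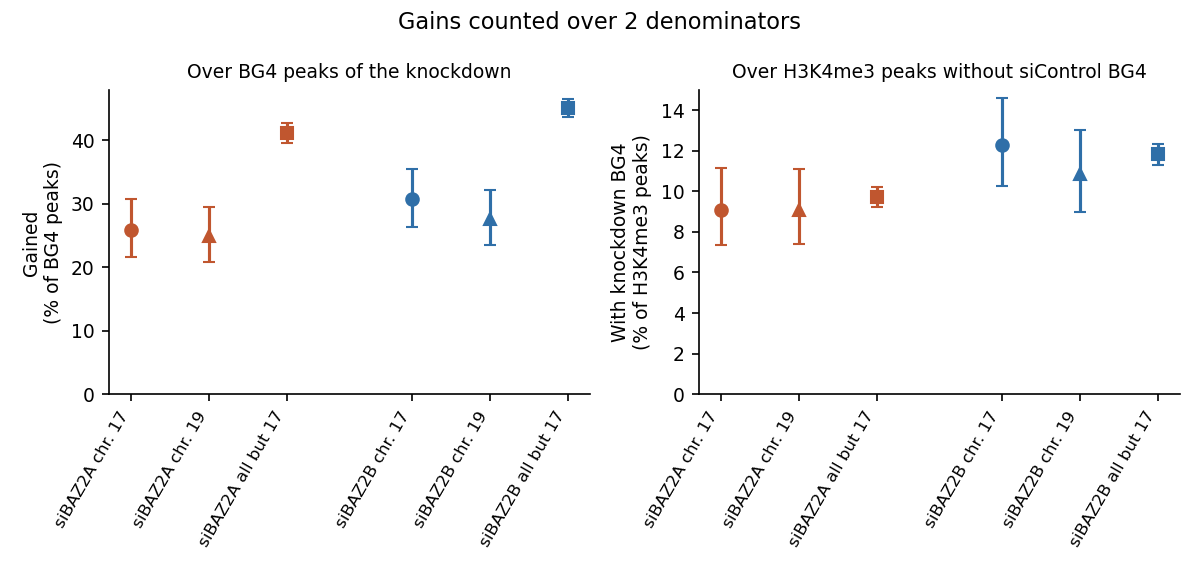
Gains against siControl as percent of the knockdown's BG4 peaks (left) and as percent of H3K4me3 peaks without siControl BG4 (right), for chromosome 17 (circles), chromosome 19 (triangles) and all chromosomes but 17 (squares), with bars for 95% Wilson intervals; siBAZ2A is red-brown and siBAZ2B blue. On the left chromosome 17 lies at 25.9% and 30.7%, below 41.1% and 45.1%, while on the right its 9.09% and 12.3% have intervals that include the 9.71% and 11.8% of the others.

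Few BG4 loci of chromosome 17 lay outside H3K4me3. They numbered 30 of 486 (6.17%, 4.36 to 8.68), against 659 of 5720 elsewhere (11.5%, 10.7 to 12.4). Chromosome 19 had a share close to that of chromosome 17, with 30 of 498 (6.02%, 4.25 to 8.47). Of the 30, 8 were in all 3 lists, 7 in 2 lists and 15 in 1 list, and their median distance to the nearest H3K4me3 peak was 5780 bp. They were weaker as a group, with a median of 5.16 for the highest fold of a locus against 6.95 for loci on H3K4me3. The strongest was chr17:22020533-22020990, with folds of 20.2 in siControl, 22.5 in siBAZ2A and 20.5 in siBAZ2B, the highest of chromosome 17 in each list. It lay 182611 bp from the nearest H3K4me3 peak, shortly before the peak-free stretch at chr17:22261623-25539147. How reads map at this locus was not examined. The next strongest were chr17:80245971-80246532 (5.80 in siControl, 7.94 in siBAZ2A), chr17:80980314-80981400 (5.43 in siBAZ2A, 7.85 in siBAZ2B), chr17:21360352-21360736 (6.40 in siBAZ2A) and chr17:79368862-79369294 (6.29 in siBAZ2A, 4.59 in siBAZ2B).

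The peak numbers that the names carry bound how many peaks the numbered run named in each list had on chromosome 17. In 3 of the 4 lists the names carry a run number above the 4 labelled replicates, so the run could not be matched to a labelled replicate. The number lay between 649 and 665 for siControl, 634 and 646 for siBAZ2A and 593 and 607 for siBAZ2B. By these bounds the runs named in the knockdown lists had fewer peaks on this chromosome, while the lists had more. The comparison is between single runs, with no replicates. The list kept 49.02% to 50.2% of them in siControl, 54.3% to 55.4% in siBAZ2A and 63.8% to 65.3% in siBAZ2B. Over the whole genome at most 38.5%, 51.9% and 54.99% were kept. How far the share kept, which moves with the number of gained peaks, plays a part in the gains was not tested. These bounds assume that peaks are numbered in order of position, and 0 breaks of that order were found in the lists.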

How the data were processed

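BG4 or H3K4me3 CUT&Tag was deposited as 4 peak lists, 1 per group of 4 replicates. Per the submitters' processing notes, the tools were MACS2 2.1.4, SAMtools 1.15.1, Bowtie2 2.4.5, bedtools and Picard, and the builds dm6 and hg19. A peak entered a list, per the labels, if 2 or more replicates had it, and took its position from the replicate richest in peaks. In the deposited lists column 7 is the authors' fold enrichment (a ratio), column 9 the −log10 of the q-value, and column 10 the distance of the summit from the peak's start. The depth of the libraries is unknown. Values of single replicates were not analysed, apart from the numbers in the peak names. Those names carry run numbers above the 4 labelled replicates, so how many runs the rule of 2 drew on is unknown.

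Peaks with at least 1 base in common were counted as shared. Peaks were placed in 1 Mb bins by midpoint, and quintiles were taken over whole lists. Regions were named by rule: fullest bins, bins of highest and lowest share and of most gains and losses (ties added), and loci and H3K4me3 peaks of highest fold or width. The members, lists and rules were chosen with earlier results of these data known. Counts over H3K4me3 peaks without siControl BG4, bin fullness, peak numbers and the promoter motif were added after the values were seen. An hg19 genome or annotation was not used here, so planned gene lists were not analysed. The sequences and promoter windows are RefSeq's (GRCh38.p14). Overlap counting was tested on simulated lists. Scripts ran under Python 3.11.15 with NumPy 2.4.6, SciPy 1.17.1, pandas 2.3.3 and matplotlib 3.10.9.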

Additional observations from a re-analysis of the deposited data

How the results depend on the processing

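The lists hold no depth and no replicates, so precision beyond counting error is unknown. No paired analysis was possible because the 4 replicates of a group stand merged in 1 list, so none of them could be left out either. Of 68 alternative values of 15 results, 46 stayed within the interval of the value reported (for counts, within 1.5 times it). When peaks with a −log10 q under 5 were left out, 21.7% of the H3K4me3 peaks of chromosome 17 had siControl BG4, 24.03% siBAZ2A BG4 and 24.1% siBAZ2B BG4. The siBAZ2B gained share was then 26.2%, and the share of H3K4me3 peaks without siControl BG4 carrying siBAZ2B BG4 was 7.43%. With BG4 lists of equal length the siBAZ2A and siBAZ2B values were 23.6% and 22.8% of H3K4me3 peaks with BG4, 29.4% and 29.1% lost, 19.9% and 17.9% gained by quintiles of fold, and 6.70% and 5.23% of H3K4me3 peaks without siControl BG4. The siBAZ2B gained share was 18.6% there, and 26 loci were in both knockdowns and not in siControl. With an overlap of 50% siBAZ2B had 36.7% gained, 34.3% gained by quintiles of fold and 24.8% lost. This overlap was not applied to merged loci. By quintiles of width the gained shares were 30.01% in siBAZ2A and 33.5% in siBAZ2B. On the stronger 50% of H3K4me3 peaks, 33.5% had siBAZ2B BG4, and 14.6% of those without siControl BG4 did. Why these values moved was not tested. The q-value cut and the lists of equal length also leave fewer knockdown BG4 peaks. The gained share of chromosome 17 stayed below that of the other chromosomes in the 5 settings compared there, with differences of -15.6 to -9.23 percentage points in siBAZ2A and -14.8 to -13.6 in siBAZ2B.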
